A study of Mus musculus with 4 samples.

Results

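The genes followed here were those of the Serpina cluster, in the livers of mice on a high-fat diet. They are Serpina1a to Serpina1e, Serpina3k, Serpina3m, Serpina3n, Serpina6 and Serpina12, picked by name, and they were 10 of the 25655 genes in the deposited count table. All 10 lie on chromosome 12, between 103612889 and 104380588 on GRCm39, and all 10 passed the filter on low counts. The lowest count of a member in a library was 581 reads, for Serpina12.

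The samples were bulk liver polyA RNA of wild-type (HFD-WT) and ADAR2 knockout (HFD-KO) male mice. ADAR2, encoded by Adarb1, is an enzyme that edits adenosine to inosine in RNA. The GluR-B R/R allele was present in wild-type and knockout mice alike, and they came from crosses of heterozygous parents on a mixed B6129S background, and received the high-fat diet for 12 weeks from 5 weeks of age. Y-linked Ddx3y was read in all 4 libraries, at 34.0 to 38.6 CPM (reads of a gene scaled to a common library total). There were 2 libraries per group, while the paper's legend for its gene set enrichment in these livers gives a larger number of mice per group. Neither the labels nor the methods tie a library to an individual mouse, so p values measure the spread between these libraries. Libraries held between 24480798 and 28691330 counted reads. Adarb1, the targeted gene, had 15.7 and 19.8 CPM in HFD-WT against 6.23 and 9.55 CPM in HFD-KO (log2 fold change -1.17 ± 0.20 SE, edgeR adjusted p = 0.159), so its reads were fewer but present in both HFD-KO libraries.

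Serpins are plasma and tissue proteins that trap proteases. An exposed stretch, the reactive centre loop, serves as bait: the protease cuts it, the serpin folds around the enzyme, and both are cleared together. The sequence of that loop decides which protease is caught. Alpha-1-antitrypsin, the major serpin of plasma and a product of hepatocytes, restrains neutrophil elastase. It is encoded by Serpina1, a single gene in humans and a row of close copies in mice, whose number differs among inbred strains. The Serpina3 copies are related to antichymotrypsin. Serpina6 encodes corticosteroid-binding globulin, a hormone carrier that inhibits no protease, and Serpina12 encodes vaspin, which is also made by adipose tissue.

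The 5 Serpina1 copies were nearly identical in sequence, and the places where they differ bear on both their targets and their counts. Over 1239 aligned coding bases of the GENCODE M21 transcripts, pairs of copies were between 96.3% and 98.5% identical, and 86 bases (6.94%) were not shared by all 5. In the 81 coding bases that span the reactive centre loop, from its hinge through the motif after it, 18 bases (22.2%) were not shared. These bases are shown because they include those that encode the bait. They vary more densely than the coding sequence as a whole, although most of the variable bases lie outside this stretch. They run 5′ to 3′ on the minus strand of chromosome 12 of GRCm38, at chr12:103947093-103947173 for Serpina1e, and capitals mark bases that are not the same in all 5 copies.
Serpina1a: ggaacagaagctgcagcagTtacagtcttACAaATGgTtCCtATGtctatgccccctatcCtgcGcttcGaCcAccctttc
Serpina1b: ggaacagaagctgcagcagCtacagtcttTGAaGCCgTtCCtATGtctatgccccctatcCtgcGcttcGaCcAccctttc
Serpina1c: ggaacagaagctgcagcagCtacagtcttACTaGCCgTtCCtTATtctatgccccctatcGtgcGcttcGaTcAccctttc
Serpina1d: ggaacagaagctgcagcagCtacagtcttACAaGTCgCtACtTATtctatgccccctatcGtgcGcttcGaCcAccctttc
Serpina1e: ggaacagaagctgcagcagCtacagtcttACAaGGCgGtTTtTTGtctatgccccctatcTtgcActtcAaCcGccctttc
Serpina1e stood out among these lines, with 8 bases found in no other copy against 2 or 3 for each of the rest. Some of the 8 lie in the motif after the loop. Serpina1e differed from Serpina1c at 12 of the 81 bases.

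The copies were also compared as a short read would see them. Each coding sequence was divided into all windows of 100 bases, and a window counted as unique where no transcript of another gene held the same letters. Serpina1e had the largest unique share of the 5 copies, 80.9% of 1140 windows. For Serpina1b and Serpina1d the share was 70.0% and 66.7%, and for Serpina1a and Serpina1c, which are the closest pair, it was 39.0% and 38.2%. Serpina3k and Serpina3m each had 91.8% unique windows, Serpina3n 99.7%, and Serpina6 and Serpina12 had no shared window. How the authors treated reads that fit several genes is not given in the sources used here, so counts of Serpina1a and Serpina1c are the least certain and sums over copies are given beside the single genes. A sum does not settle reads that were dropped or counted more than once. The windows and loop bases are those of reference transcripts, and the copies of these mice, of mixed B6129S background, may differ from them. Each Serpina1 copy also shared windows with Gm8893, which lies outside the sum and was not analysed here. The gene models overlap on the same strand as well: Serpina1d lies inside the span of Serpina1b, and Serpina3k inside that of Serpina3m.

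**Figure D1:**
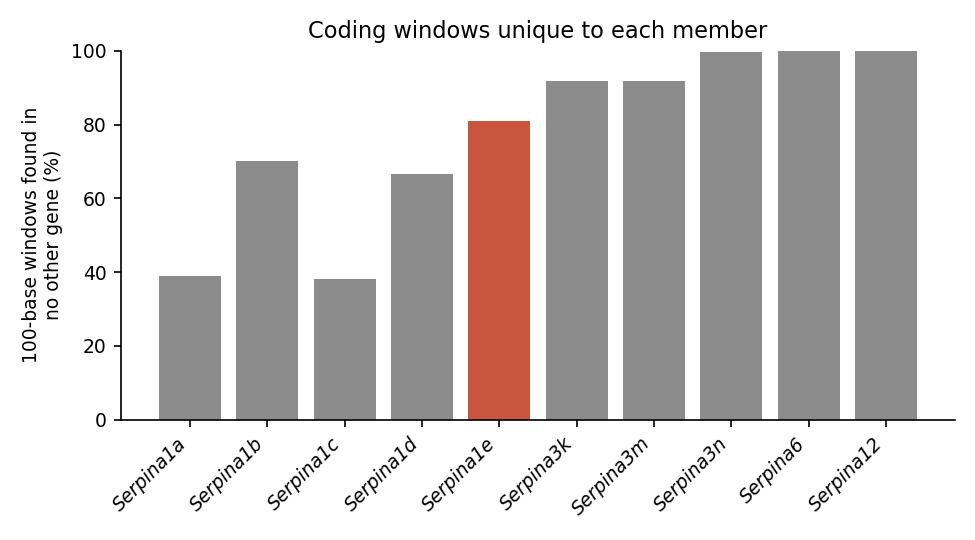
Percent of the 100-base windows of each member's coding sequence that occur in no transcript of another gene (bars; Serpina1e in red). Serpina1e, at 80.9%, is the most distinct of the 5 Serpina1 copies, and Serpina1c, at 38.2%, the least.

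Upstream of the gene starts the copies differed little. RefSeq promoter sequences, 250 bases before to 50 after each start on GRCm38.p6, were found for 7 of the 10 members. The letters GTTAAT were searched on both strands. They occurred in the promoters of all 5 Serpina1 copies and of neither Serpina3n nor Serpina12, against 7.10% of 32851 promoters in the table. The windows around these letters are shown because they are nearly the same before copies whose expression differed. Each runs 5′ to 3′ on the minus strand, from 90 bases before the motif to 10 after it, at chr12:103956960-103957065 for Serpina1e on GRCm38.p6, with the motif in capitals.
Serpina1a: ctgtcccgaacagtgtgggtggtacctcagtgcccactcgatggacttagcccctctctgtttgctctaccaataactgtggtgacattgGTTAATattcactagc
Serpina1b: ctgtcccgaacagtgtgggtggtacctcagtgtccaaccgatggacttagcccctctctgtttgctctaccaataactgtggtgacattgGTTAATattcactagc
Serpina1c: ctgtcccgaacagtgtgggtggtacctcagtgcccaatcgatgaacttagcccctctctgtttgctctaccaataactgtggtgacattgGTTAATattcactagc
Serpina1d: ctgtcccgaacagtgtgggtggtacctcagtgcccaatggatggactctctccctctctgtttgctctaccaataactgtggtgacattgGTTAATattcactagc
Serpina1e: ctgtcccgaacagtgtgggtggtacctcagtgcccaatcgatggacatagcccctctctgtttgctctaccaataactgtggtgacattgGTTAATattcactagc
Of the 106 bases, 96 were the same in all 5 copies, the nearest variable base lay 40 bases before the motif, and 0 bases after it varied. Serpina1e had 1 base found in no other copy and Serpina1d had 5. The motif began 78 bases before the annotated start for Serpina1e and 16 to 27 bases before it for the other copies. The letters TTCNNNGAA, bound by STAT5 among other factors, occurred in none of the 7 member promoters and in 8.30% of all promoters, on either strand. TTGCNNAA, a C/EBP motif, occurred in those of Serpina1a, Serpina1b, Serpina1d, Serpina1e and Serpina12 and in 10.8% of all promoters. These matches describe letters only and show no binding.

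The cluster was among the most abundant transcripts of these livers. The 10 members took 2.06% and 2.04% of all reads in HFD-WT and 2.53% and 2.61% in HFD-KO. Levels between genes were compared with the authors' RPKM values, which divide reads by exon length and library total. Serpina1c was the highest member in all 4 libraries, with 2922 and 2678 RPKM in HFD-WT and 3669 and 3712 RPKM in HFD-KO. Serpina1a, Serpina1b, Serpina1d and Serpina3k followed between 1580 and 2427 RPKM, and their order changed from library to library. Serpina3n (274 to 458 RPKM), Serpina3m (173 to 230 RPKM) and Serpina6 (86.6 to 115 RPKM) formed a middle range, and Serpina12 was lowest, with 5.94 to 8.28 RPKM. Serpina1e had no fixed place in this order. It was number 9 and number 8 of the 10 members in the HFD-WT libraries, with 54.8 and 148 RPKM, and number 6 in both HFD-KO libraries, with 472 and 891 RPKM. Among all 25655 genes it moved from rank 924 and rank 383 in HFD-WT to rank 117 and rank 72 in HFD-KO.

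**Figure D2:**
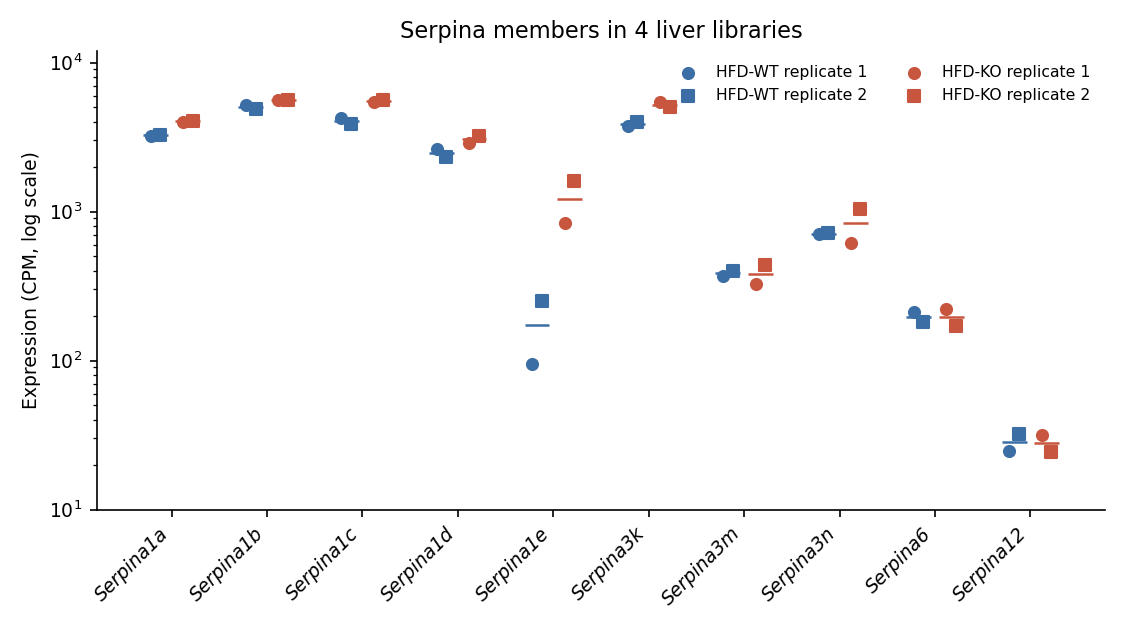
Expression of the 10 members in CPM with TMM-adjusted library sizes, on a log axis. Points are single libraries (blue HFD-WT, red HFD-KO; circles replicate 1, squares replicate 2) and horizontal lines are group means. Serpina1e spans 94.96 to 1598 CPM, while Serpina6 and Serpina12 overlap between the groups.

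The question put to these values was whether loss of ADAR2 changed the liver's output of serpin transcripts on the high-fat diet. In HFD-KO livers 7 of the 10 members had a positive log2 fold change, and 6 had both HFD-KO values above both HFD-WT values, against 20.5% of the 12967 genes tested. All of these 6 but Serpina3k were Serpina1 copies, whose reads may be shared, so they are not separate observations. The largest difference belonged to Serpina1e, which was 7.01-fold higher. Serpina1c, Serpina3k, Serpina1a and Serpina1d were 1.36-, 1.34-, 1.25- and 1.24-fold higher. Serpina3m, Serpina6 and Serpina12 had group means that differed by less than their SDs.

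By edgeR's quasi-likelihood test, 5 members had an unadjusted p under 0.05 in the higher direction, against 4.25% of all genes tested. In the lower direction 0 members did, against 4.73% of genes. All of the 5 higher members but Serpina3k were Serpina1 copies. Scaled by library size alone, the whole table went at this threshold from 551 higher and 613 lower to 346 higher and 894 lower, and 3 members passed, all of them higher, against 2.67% of genes. With a replicate block 4 members were higher, against 3.62%. At an adjusted p under 0.05, 0 of the 10 members passed, and neither did most genes: 0.0771% of those tested. DESeq2's Wald test, run as an alternative, gave 3 members with an adjusted p under 0.05, Serpina1c, Serpina1e and Serpina3k, all higher, against 0.419% of the genes it tested. The count of 5 higher members at an unadjusted p under 0.05 was 2 without HFD-WT replicate 1 (2.85% of all genes) and 2 without HFD-WT replicate 2 (1.92%). It was 6 without HFD-KO replicate 1 (8.25%) and 5 without HFD-KO replicate 2 (5.77%). In the fit without HFD-KO replicate 2, 2 members also passed in the lower direction, Serpina3m and Serpina3n, against 5.63% of genes. At an adjusted p under 0.05 by edgeR, 6 members were higher without HFD-KO replicate 1, against 2.83% of genes, and 3 without HFD-KO replicate 2, against 1.69%. By the same threshold Serpina1e alone was higher with no filter on low counts (0.468% of genes) and with the block (0.0925%). In the fits without a HFD-KO library the spread came from the HFD-WT libraries alone, and the lone HFD-KO library was assumed to vary like them. The median log2 fold change was 0.27 over the members and 0.01 over all genes tested.

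**Figure D3:**
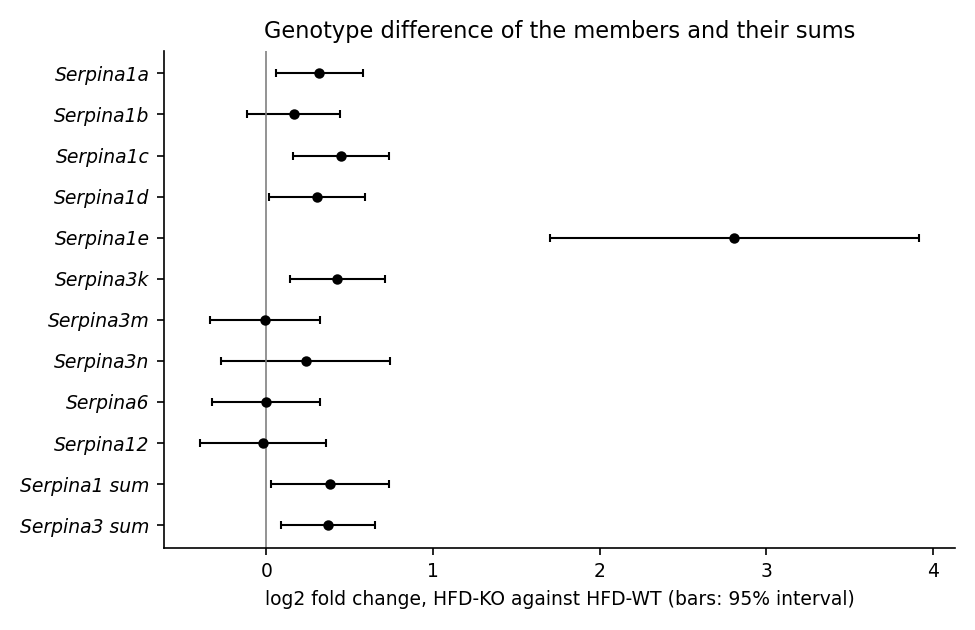
Difference between HFD-KO and HFD-WT, as log2 fold change, for each member and for the summed Serpina1 and Serpina3 reads (points), with approximate 95% intervals from edgeR (bars). The interval of Serpina1e, 1.70 to 3.92, lies apart from those of the other members, and the intervals of Serpina1b, Serpina3m, Serpina3n, Serpina6 and Serpina12 include 0.

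Serpina1e (ENSMUSG00000072849, chromosome 12 from 103913190 to 103925234 on GRCm39) had 2750 and 6938 reads in HFD-WT and 21960 and 38157 reads in HFD-KO. These correspond to 94.96 and 252 CPM in HFD-WT and to 834 and 1598 CPM in HFD-KO. The groups did not overlap, and the lower HFD-KO value was more than 3 times the higher HFD-WT value. The replicates were far apart too: they differed 2.66-fold within HFD-WT and 1.92-fold within HFD-KO, whereas those of the other 4 copies differed by at most 1.13-fold. The log2 fold change was 2.81 ± 0.47 SE (edgeR adjusted p = 0.141), which ranked 9 among the 12967 genes tested and first among the 1337 genes with a mean of at least 100 CPM. It was 3.68 without HFD-WT replicate 2 and between 2.26 and 3.20 without each of the other libraries. The adjusted p passed 0.05 with DESeq2 (0.0496), with no filter on low counts in edgeR (0.00048), with a replicate block in edgeR (0.0064), and without HFD-KO replicate 1 (5.8e-12 by edgeR) or HFD-KO replicate 2 (6.5e-08 by edgeR). Over the 9 alternatives it ranged from 5.8e-12 to 0.189.

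The other 4 alpha-1-antitrypsin copies differed far less. Serpina1c (ENSMUSG00000079015) had 4262 and 3845 CPM in HFD-WT and 5455 and 5603 CPM in HFD-KO, a log2 fold change of 0.45 ± 0.12 SE (edgeR adjusted p = 0.360). Serpina1a (ENSMUSG00000066366) had 3216 and 3267 CPM in HFD-WT and 4002 and 4073 CPM in HFD-KO, a log2 fold change of 0.32 ± 0.11 SE (edgeR adjusted p = 0.474). Both HFD-KO libraries lay above both HFD-WT libraries for each of these copies. Serpina1d (ENSMUSG00000071177) had 2631 and 2323 CPM in HFD-WT and 2901 and 3218 CPM in HFD-KO, and Serpina1b (ENSMUSG00000071178) had 5156 and 4884 CPM in HFD-WT and 5624 and 5626 CPM in HFD-KO. Their log2 fold changes were 0.30 ± 0.12 SE and 0.16 ± 0.12 SE, and the interval of Serpina1b ran from -0.12 to 0.44. Without HFD-KO replicate 1 the adjusted p by edgeR was 0.00071 for Serpina1c, 0.020 for Serpina1a, 0.010 for Serpina1d and 0.365 for Serpina1b. Without HFD-KO replicate 2 it was 0.0035, 0.053, 0.281 and 0.510 in the same order.

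Summed over the 5 copies, so that the division of a read among them does not matter, alpha-1-antitrypsin reads came to 15359 and 14572 CPM in HFD-WT and 18816 and 20119 CPM in HFD-KO. The sum was 1.30-fold higher in HFD-KO (log2 fold change 0.38 ± 0.15 SE, edgeR adjusted p = 0.518), with an interval from 0.03 to 0.73. The adjusted p was 0.016 with DESeq2 and, by edgeR, 0.0011 without HFD-KO replicate 1 and 0.026 without HFD-KO replicate 2. Serpina1e made up 0.618% and 1.73% of these reads in HFD-WT and 4.43% and 7.94% in HFD-KO. Serpina1b, the copy with most reads, went the other way, from 33.6% and 33.5% to 29.9% and 27.97%. The shares of Serpina1a, between 20.2% and 22.4%, and of Serpina1d, between 15.4% and 17.1%, overlapped between the groups, while Serpina1c held 27.7% and 26.4% in HFD-WT and 29.0% and 27.9% in HFD-KO.

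**Figure D4:**
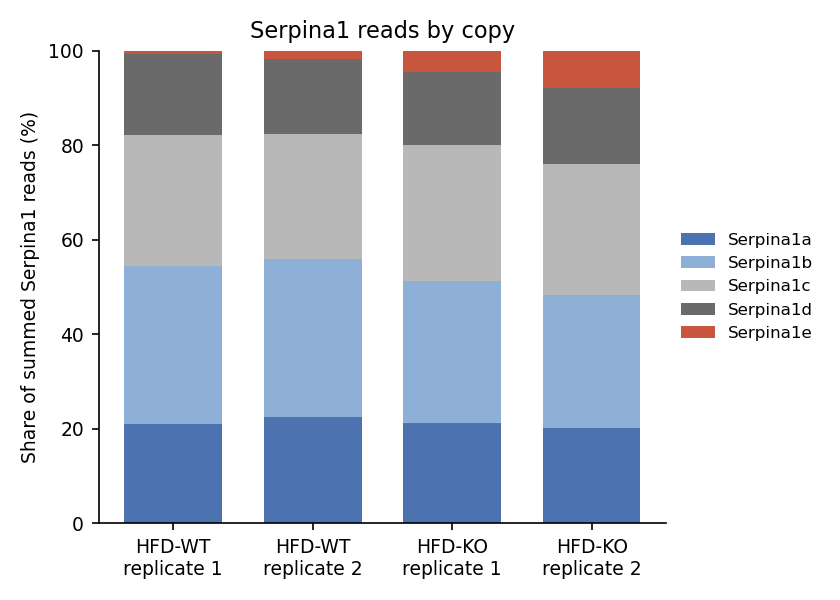
Share of each copy in the summed Serpina1 reads, in percent, for each library (stacked bars). The red part, Serpina1e, is 0.618% and 1.73% in HFD-WT and 4.43% and 7.94% in HFD-KO, and the other 4 copies keep most of the reads in every library.

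The ratio of each copy to the sum of the other 4 within a library does not depend on the scaling of the libraries. For Serpina1e its log2 value was -7.33 and -5.83 in HFD-WT and -4.43 and -3.54 in HFD-KO, a difference of 2.60 or 6.04-fold. For Serpina1b the difference was -0.31, for Serpina1d -0.09, for Serpina1a -0.08 and for Serpina1c 0.10. An exact two-sided permutation test with 2 libraries against 2 cannot give a p below 0.333, and Serpina1e, Serpina1b and Serpina1c were each at that limit.

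Among the Serpina3 copies, Serpina3k (ENSMUSG00000058207), which encodes a contrapsin that binds tissue kallikrein, differed most. It had 3768 and 4014 CPM in HFD-WT and 5454 and 4997 CPM in HFD-KO, without overlap (log2 fold change 0.43 ± 0.12 SE, edgeR adjusted p = 0.373). Its adjusted p was 0.0057 with DESeq2 and, by edgeR, 0.0096 without HFD-KO replicate 1 and 0.00063 without HFD-KO replicate 2. Serpina3m (ENSMUSG00000079012), which shares its first annotated base with Serpina3k, had 371 and 397 CPM in HFD-WT and 326 and 438 CPM in HFD-KO. The HFD-KO values lay on either side of both HFD-WT values, and the interval of the log2 fold change ran from -0.34 to 0.32. The sum of the 3 copies was 4841 and 5124 CPM in HFD-WT and 6396 and 6483 CPM in HFD-KO (log2 fold change 0.37 ± 0.12 SE, edgeR adjusted p = 0.436). Serpina3k held between 77.1% and 85.3% of that sum. The adjusted p of the sum was 0.013 with DESeq2 and, by edgeR, 0.0056 without HFD-KO replicate 1 and 0.014 without HFD-KO replicate 2.

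Serpina3n (ENSMUSG00000021091), an acute phase serpin that inhibits granzyme B and leukocyte elastase, turned on a single library. Its expression was 701 and 713 CPM in HFD-WT and 617 and 1048 CPM in HFD-KO, so HFD-KO replicate 1 was the lowest of the 4 and HFD-KO replicate 2 the highest. The log2 fold change of 0.24 ± 0.22 SE (edgeR adjusted p = 0.790) became -0.20 without HFD-KO replicate 2 and 0.57 without HFD-KO replicate 1 (adjusted p = 5.6e-05 by edgeR). Of 27 acute phase genes tested, 1 was higher and 1 lower at an unadjusted p under 0.05, Crp and Steap4, and 0 had an adjusted p under 0.05. Their summed expression, mostly albumin and other abundant plasma proteins, was 96687 and 95887 CPM in HFD-WT and 91996 and 123032 CPM in HFD-KO. The sum of hepatocyte markers, which shares Alb, Ttr, Ahsg, Fga and Fgb, was also highest in HFD-KO replicate 2, at 105058 CPM. These sums are therefore not independent.

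Serpina6 (ENSMUSG00000060807), the corticosteroid carrier, had 210 and 181 CPM in HFD-WT and 220 and 169 CPM in HFD-KO. Its log2 fold change was -0.00 ± 0.14 SE (edgeR adjusted p = 0.994), with a 95% interval of the fold from 0.80 to 1.25. Serpina12 (ENSMUSG00000041567), vaspin, had 24.6 and 32.2 CPM in HFD-WT and 31.6 and 24.3 CPM in HFD-KO, with an interval of the fold from 0.76 to 1.28 (log2 fold change -0.02 ± 0.16 SE, edgeR adjusted p = 0.979). The groups overlapped for both genes. Among 14 genes of glucocorticoid handling and response, 9 had a positive and 5 a negative log2 fold change, with a median of 0.08. By edgeR, 1 passed an unadjusted p of 0.05 as higher and 2 as lower. The lower genes were Fkbp5, a glucocorticoid receptor co-chaperone, with 88.6 and 164 CPM in HFD-WT and 40.2 and 68.5 CPM in HFD-KO, and Zbtb16, a transcription factor, with 28.8 and 77.1 CPM in HFD-WT and 11.2 and 22.9 CPM in HFD-KO. The higher gene was Dusp1, a phosphatase, with 41.6 and 51.0 CPM in HFD-WT and 64.3 and 57.1 CPM in HFD-KO. Their adjusted p values were 0.341, 0.376 and 0.402 by edgeR.

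**Figure D5:**
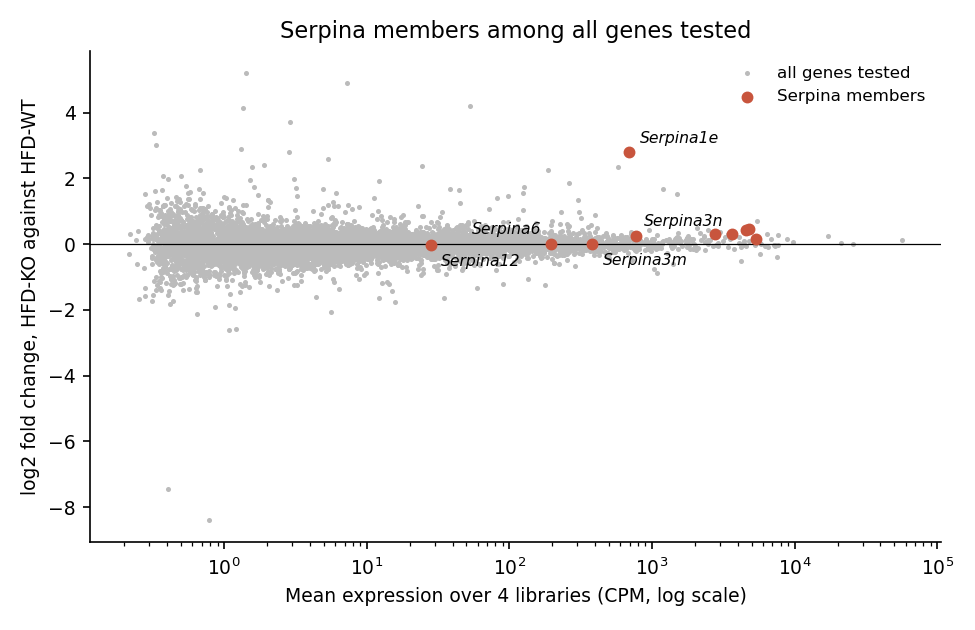
Log2 fold change (HFD-KO over HFD-WT) plotted against mean expression in CPM (log axis) for the 12967 genes tested (grey) and the 10 members (red, 5 of them labelled). Serpina1e has the largest positive log2 fold change, 2.81, among genes with a mean of at least 100 CPM, and the other members lie between -0.02 and 0.45.

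Between the outermost members lay 13 other genes of the table, of which 4 passed the filter on low counts and 4 had no read in any library. Serpina11, which sits between Serpina1e and Serpina12, was the one gene of the 4 with an unadjusted p under 0.05. It had 53.7 and 54.6 CPM in HFD-WT and 68.1 and 95.5 CPM in HFD-KO (log2 fold change 0.59 ± 0.15 SE, edgeR adjusted p = 0.326). Of all 14 further Serpina genes in the table, 6 were tested, 4 with a positive and 2 with a negative log2 fold change.

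Plasma serpins encoded elsewhere in the genome had small differences in the same direction. All 8 listed genes were tested, with a median log2 fold change of 0.22, and 3 were higher at an unadjusted p under 0.05. Serpinf2, the plasmin inhibitor alpha-2-antiplasmin, had 637 and 599 CPM in HFD-WT and 724 and 875 CPM in HFD-KO. Agt, angiotensinogen, had 742 and 723 CPM in HFD-WT and 825 and 920 CPM in HFD-KO. The groups of neither gene overlapped, and their adjusted p values were 0.416 and 0.513 by edgeR. Of 18 listed target proteases, 11 were tested, and 2 were higher and 1 lower at an unadjusted p under 0.05. The leading gene was Klkb1, plasma prekallikrein, with 196 and 197 CPM in HFD-WT and 259 and 251 CPM in HFD-KO (adjusted p = 0.233 by edgeR). F11, coagulation factor XI, was the other higher gene, with 23.7 and 35.0 CPM against 45.2 and 34.96 CPM, and Mmp12, macrophage elastase, which cleaves alpha-1-antitrypsin, the lower one, with 10.5 and 15.2 CPM against 10.5 and 6.57 CPM. The groups of both overlapped. The neutrophil proteases that alpha-1-antitrypsin restrains are made in bone marrow, and 3 of 12 neutrophil markers passed the filter.

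Transcription factors of hepatocyte serpin promoters were also examined. All 18 were tested, 14 had a positive log2 fold change, and 2 were higher and 1 lower at an unadjusted p under 0.05. Stat5a, which relays growth hormone signals, had 20.9 and 20.5 CPM in HFD-WT and 24.7 and 26.0 CPM in HFD-KO (adjusted p = 0.370 by edgeR). Cux2, the other higher gene, a repressor typical of female liver, had at most 0.483 CPM in 3 libraries and 10.4 CPM in HFD-KO replicate 2. Onecut1, a hepatocyte factor, had 34.8 and 9.05 CPM in HFD-WT and 5.01 and 11.3 CPM in HFD-KO, so its groups overlapped.

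Summed markers of Kupffer and stellate cells differed between the groups without overlap, while those of hepatocytes overlapped. Hepatocyte markers summed to 86951 and 87154 CPM in HFD-WT and 86583 and 105058 CPM in HFD-KO, and 0 of 11 had an unadjusted p under 0.05 by edgeR, nor an adjusted one. Of 15 Kupffer cell and macrophage markers 14 were lower, 10 of them at an unadjusted p under 0.05, with sums of 565 and 706 CPM in HFD-WT and 478 and 435 CPM in HFD-KO. Of 12 stellate cell and fibroblast markers 9 were lower, 5 at that threshold, with sums of 432 and 484 CPM against 379 and 299 CPM. All 6 red blood cell markers tested were higher, 3 at that threshold, with sums of 758 and 601 CPM against 811 and 1147 CPM, and all 9 B and plasma cell markers were higher, 4 at that threshold, with sums of 19.9 and 16.4 CPM against 127 and 21.6 CPM. Adipocyte markers, listed because of Serpina12, ranged from 45.7 to 89.5 CPM with overlap, and Lep had no read in any library. The part of these cells in the members' differences was not tested. In bulk liver, fewer cells of a type and less RNA per cell cannot be told apart.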

How the data were processed

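Liver RNA of 2 HFD-WT and 2 HFD-KO libraries was analysed, grouped by the sample titles. Per the methods, the authors prepared directional libraries, aligned reads with a tool of MGI Tech to mm10 and counted them per gene in Partek Genomics Suite with GENCODE annotation; versions, the strand setting and the handling of reads with several matches are not given in the sources used here. The submitters' processing notes list mm10 and GRCm39, and the positions in the table are those of GRCm39. The deposited counts are raw whole numbers of reads and were the values tested. The authors' RPKM values were used for levels between genes. The authors' TPM values were not used. The deposited CPM column is a score on an adjusted library size and was not used.

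CPM values given here are counts over TMM-adjusted library sizes. In R 4.3.3, edgeR 4.0.16 (filterByExpr, TMM, quasi-likelihood test, two-sided, Benjamini-Hochberg over 12967 genes) compared HFD-KO with HFD-WT, and DESeq2 1.42.0 gave the Wald test. Standard errors and 95% intervals are approximations from the F statistic. Counts summed over the Serpina1 or Serpina3 copies replaced their rows in separate fits. The procedure was tested on simulated data with changes larger than those of every member but Serpina1e, and with no change. Sequences came from GENCODE M21 transcripts and RefSeq promoters and were handled in Python 3.11.15 with Biopython 1.88. In the coding sequences, the stretch with the reactive centre loop was located in the translated frame. It ran from a conserved hinge to a motif that follows the loop, both included, and this motif differed in Serpina1e. All members were named; other genes were named from compiled lists by the smallest unadjusted p under 0.05, at most 3 per list; 1 gene that this rule names is not reported here. Members and lists were chosen with earlier results of these data known. Total counts ranged from 24480798 to 28691330, where 3 counts correspond to 0.105 to 0.123 CPM (counting error only).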

Additional observations from a re-analysis of the deposited data

How the results depend on the processing

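Serpina1a to Serpina1e and Serpina3k kept a positive log2 fold change under all 9 alternatives, and the median over the members ranged from 0.20 to 0.35. At an adjusted p under 0.05, 0 members passed by edgeR, 3 with DESeq2's Wald test, 1 with no filter on low counts, 1 with the replicate block and 0 to 6 in fits that each dropped 1 library. At an unadjusted p under 0.05, 5 members passed, 3 with the library size alone and 2 to 7 when each library was left out, where the 7, without HFD-KO replicate 2, were 5 higher and 2 lower. Over all genes, an adjusted p under 0.05 was reached by 7 higher and 3 lower genes by edgeR, 81 and 81 with no filter, 12 and 8 with the block, and 376 and 329 without HFD-KO replicate 1. The summed Serpina1 counts passed an adjusted p of 0.05 with DESeq2 (log2 fold change 0.38) and ranged from 0.33 to 0.43 when each library was left out, and the summed Serpina3 counts did so with DESeq2 (0.37) and ranged from 0.32 to 0.41. Fits without a HFD-KO library rest on the spread of the HFD-WT pair. Direction reversed when a library was left out for Serpina12 (-0.22 to 0.19), Serpina3m (-0.24 to 0.19), Serpina3n (-0.20 to 0.57) and Serpina6 (-0.21 to 0.17), and the cause was not tested. Across genes, same-numbered libraries did not deviate together (correlation -0.087). For Serpina1e, replicate 2 was above replicate 1 in both groups (252 against 94.96 CPM in HFD-WT, 1598 against 834 CPM in HFD-KO). Whether same-numbered libraries share a batch or a pairing was not tested. With the replicate block, Serpina1e had a log2 fold change of 2.90 and passed the threshold. The lowest count of a member in a library was 581 reads.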

Other observations

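Serpins that act inside cells or in tissues were low in these livers, and 6 of 13 listed genes passed the filter, 5 of them with a negative log2 fold change. Serpinb1a, an inhibitor of neutrophil serine proteases found in leukocytes, had 5.11 and 4.40 CPM in HFD-WT and 11.7 and 6.91 CPM in HFD-KO (adjusted p = 0.332 by edgeR). Serpinb6a, an intracellular inhibitor of cathepsin G, had 15.99 and 19.9 CPM in HFD-WT and 13.8 and 13.4 CPM in HFD-KO (adjusted p = 0.416 by edgeR). Neither gene overlapped between the groups.

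Genes of the route that alpha-1-antitrypsin takes out of the cell differed little. All 19 listed factors were tested, 15 with a positive log2 fold change and a median of 0.08. Lman1, a cargo receptor that carries alpha-1-antitrypsin from the endoplasmic reticulum, had 152 and 158 CPM in HFD-WT and 158 and 171 CPM in HFD-KO and was singled out for that role after its values were seen. Erlec1, a lectin of endoplasmic reticulum quality control, was the one gene with an unadjusted p under 0.05, with 26.7 and 25.6 CPM in HFD-WT and 21.3 and 21.5 CPM in HFD-KO (adjusted p = 0.369 by edgeR). Of 8 receptors and clearance genes, 0 had an unadjusted or adjusted p under 0.05 by edgeR. Of 12 endothelial markers and 7 tested cholangiocyte markers, 1 each was lower at an unadjusted p under 0.05, namely Lyve1 and Spp1, and of 8 T and NK cell markers tested 0 passed that threshold or the adjusted one.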
